A study of Rattus norvegicus with 24 samples.

Results

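The first and last probes of mid-sized CpG islands were compared with the probes in their middle, in normal rat mammary glands and in mammary carcinomas. Probes on chromosomes 1 to 20 of the rn4 assembly were sorted by start, and a run was a series of neighboring probes whose starts lay at most 1000 bp apart. Of 13903 such runs, 3670 held 8 to 19 probes and are described here. The first and last probe of each run are called edge probes and the 2 middle ones center probes. This gave 7340 edge and 7340 center probes among the 38426 probes of these runs. The rule uses probe positions alone and no measured value, though it was set with earlier results of these data known. The runs had a median of 10 probes and a median span of 1074 bp (399 to 3643 bp). The median distance from an edge probe to the middle of the center pair was 512 bp. A run stands for an island as the array tiles it, since the files give probe positions and no island boundaries.

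All rats were female Sprague-Dawley rats, kept on the CE-2 diet and then, after 9 weeks of age, on an AIN-76A diet with 23.5% corn oil. The samples were 3 normal mammary glands of rats that were not irradiated, 7 spontaneous carcinomas of rats that were not irradiated, 7 carcinomas of rats given 2 Gy of whole-body γ-rays at 3 weeks (IR-3W), and 7 of rats given 2 Gy at 7 weeks (IR-7W). In 2 rats, 1 of each irradiated group, a pair of the tumors came from the same animal. Each sample was hybridized to 1 array. The red channel (Cy5) held DNA captured with a methyl-CpG binding domain protein, and the green channel (Cy3) held DNA of the same sample without capture. The value of a probe is the log2 ratio of captured over uncaptured DNA, centered on the median of its array, so 0 is the typical probe of that array and a higher value means more capture. Bulk tissue was used, so a change in the mixture of cells and a change within cells cannot be told apart.

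CpG islands are stretches rich in CpG dinucleotides, many of them at gene promoters, and most are free of methylation in normal tissues. The flanks of an island are known as shores, where the density of CpG falls and methylation commonly differs more between tissues and between normal and tumor tissue than in the island itself. Capture with a methyl-CpG binding protein rises with the number of methylated CpGs on a fragment, so it reads both the methylation and the CpG density of the neighborhood of a probe. For that reason a difference between edge and center within 1 sample is not a difference in methylation per CpG, whereas the same difference set against itself in other samples keeps the same probes and the same sequence.

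There were 12 slides of 2 arrays each, and 6 days of scanning. Signals well above background made up 89.7% to 99.1% of all probes of an array in Cy3 and 73.0% to 95.6% in Cy5. A single scan day held all 3 normal glands and 1 tumor, spontaneous tumor 3, which lay on the slide of normal gland 2. A comparison of tumors with glands within a day or slide therefore rests on that tumor.

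In every one of the 24 arrays the edge probes gave a lower mean log2 ratio than the center probes. The difference was widest in the normal glands, and the ends of the runs were less captured there than in any tumor. Edge probes had a mean log2 ratio of -0.13, -0.30 and -0.29 in normal glands 1, 2 and 3, and center probes 0.32, 0.28 and 0.44. In the tumors the edge probes lay between -0.058 and 0.25 with a median of 0.083, and the center probes between 0.066 and 0.54 with a median of 0.26. The edge values of glands and tumors did not overlap, and the center values did.

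**Figure D1:**
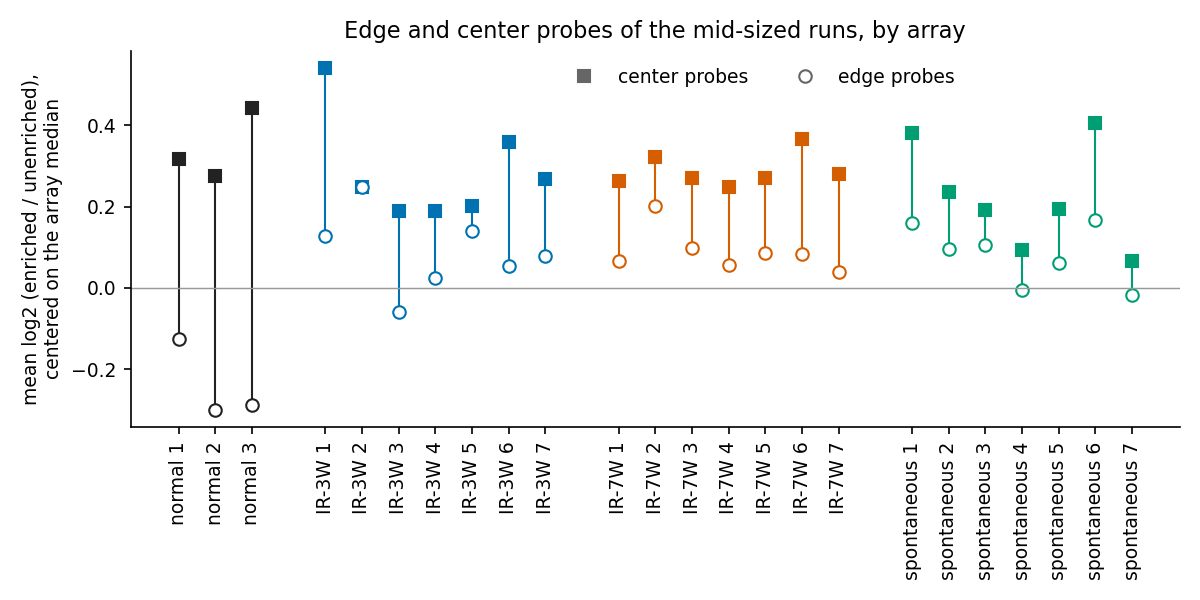
Mean log2 ratio of captured over uncaptured DNA (vertical axis, centered on the array median) of the edge probes (open circles) and center probes (filled squares) of 3670 runs, 1 line per array. The edge circles of the 3 normal glands lie between -0.30 and -0.13, under those of all 21 tumors, while the center squares of glands and tumors share a range.

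The edge minus center contrast, averaged over the 3670 runs of an array, was -0.44, -0.58 and -0.73 in normal glands 1, 2 and 3. Their mean was -0.58 ± 0.14 (SD, n = 3). In the IR-3W tumors it ran from -0.41 in tumor 1 to -0.0021 in tumor 2, with a median of -0.19 and a mean of -0.20 ± 0.14 (SD, n = 7). In the IR-7W tumors it ran from -0.28 to -0.12, with a median of -0.19 and a mean of -0.20 ± 0.051 (SD, n = 7). In the spontaneous tumors it ran from -0.24 to -0.084, with a median of -0.13 and a mean of -0.14 ± 0.063 (SD, n = 7). All glands lay below all tumors, though IR-3W tumor 1 came close to normal gland 1.

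Within each tumor group the contrast differed from 0 (two-sided exact sign-flip permutation test, p = 0.0156 in each, the smallest that 7 arrays allow, adjusted p = 0.0208 over the 4 groups). With 3 glands that test cannot go below 0.25, which is the value obtained (exact permutation p = 0.25). The level of the contrast within a tumor group depended on the processing. With normexp background correction in place of the processed signals it was 0.032 for the IR-3W tumors, 0.039 for IR-7W and 0.038 for the spontaneous ones, against -0.22 for the glands. Among the 385 runs whose edge and center probes were all 45 bases long it was -0.061 for IR-3W, -0.056 for IR-7W and -0.0062 for spontaneous tumors, and -0.41 in the glands.

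The contrast was 0.40 higher in the 21 tumors than in the glands (95% interval 0.28 to 0.54 by inversion of the exact test; two-sided exact permutation test over 2024 splits of the arrays, p = 0.000494, the smallest it allows, adjusted p = 0.00198 over 4 comparisons). Each tumor group lay apart from the glands by itself, with 0.38 for IR-3W, 0.39 for IR-7W and 0.44 for spontaneous tumors (exact permutation p = 0.00833 each, the smallest possible with 120 splits). Leaving out 1 array at a time gave differences from 0.33 to 0.47. The difference was 0.26 with normexp correction and 0.49 between normal gland 2 and spontaneous tumor 3 on their common slide. Restricted to the 569 runs whose edge and center probes were well above background in both channels in each array, the difference was 0.23 (exact permutation p = 0.00247). Glands and tumors then overlapped, with the highest gland at -0.19 and the lowest tumor at -0.31. They also overlapped on the 1812 runs with Cy3 well above background, at -0.39 and -0.41.

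The mean of the edge probes was 0.32 higher in tumors than in glands (exact permutation p = 0.000494, adjusted p = 0.00138 over 14 measures). The mean of the center probes was 0.080 lower, a difference that did not pass the test (exact permutation p = 0.232). The edges were higher in tumors on each of the 7 scales tried. The centers were lower and past 0.05 on 4 of them, with a tumor minus gland difference of -0.15 with normexp correction (exact permutation p = 0.0163), -0.18 after quantile normalization (exact permutation p = 0.000494), -0.071 after division by the array SD (exact permutation p = 0.039) and -5.59 points as percentile ranks (exact permutation p = 0.000494). They were higher by 0.96 on the rebuilt LogOdds, a log10 ratio of tail probabilities of being methylated or not (exact permutation p = 0.167).

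The 2 channels were also compared one at a time. In Cy3, the uncaptured DNA, edge minus center was -0.71 ± 0.24 (SD, n = 3) log2 units in glands and -0.71 ± 0.21 (SD, n = 21) in tumors, a difference of 0.0079 (exact permutation p = 0.949). In Cy5, the captured DNA, the same contrast was -1.30 ± 0.27 in glands and -0.89 ± 0.21 in tumors, a difference of 0.41 (exact permutation p = 0.00642, adjusted p = 0.0128). Edge probes were also longer, with a mean of 50.0 against 46.6 bases, and fewer of them were well above background. In Cy5 that share was 80.3% ± 9.46 of edge probes in glands and 70.4% ± 9.90 in tumors, against 95.2% ± 2.99 and 88.3% ± 4.88 of center probes. The edge shares did not differ past the test (exact permutation p = 0.128), and the center shares did (exact permutation p = 0.0272, adjusted p = 0.0476). The part of detection in the contrast was not tested.

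The 2 ends were also taken apart. The left end lay under the center by -0.61 ± 0.15 in glands and -0.19 ± 0.092 in tumors, and the right end by -0.56 ± 0.14 and -0.17 ± 0.095. The right minus left difference was 0.047 in glands and 0.029 in tumors, which did not pass the test (exact permutation p = 0.155). Over runs, the tumor minus gland difference at the left end had a Pearson r of 0.19 with that at the right end (3670 runs, which share their arrays).

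The glands and tumors parted step by step toward the end of a run. At the 4th probe from an end, the mean log2 ratio was 0.35 ± 0.074 (SD, n = 3) in glands and 0.29 ± 0.10 (SD, n = 21) in tumors. At the 3rd probe it was 0.24 ± 0.056 in glands and 0.25 ± 0.093 in tumors. At the 2nd probe it was 0.021 ± 0.060 in glands and 0.18 ± 0.071 in tumors, and at the end probe -0.24 ± 0.097 and 0.086 ± 0.073. The tumor minus gland difference was 0.16 at the 2nd probe (exact permutation p = 0.00148) and 0.32 at the end probe (exact permutation p = 0.000494). It was 0.014 at the 3rd (exact permutation p = 0.779) and -0.060 at the 4th (exact permutation p = 0.326).

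**Figure D2:**
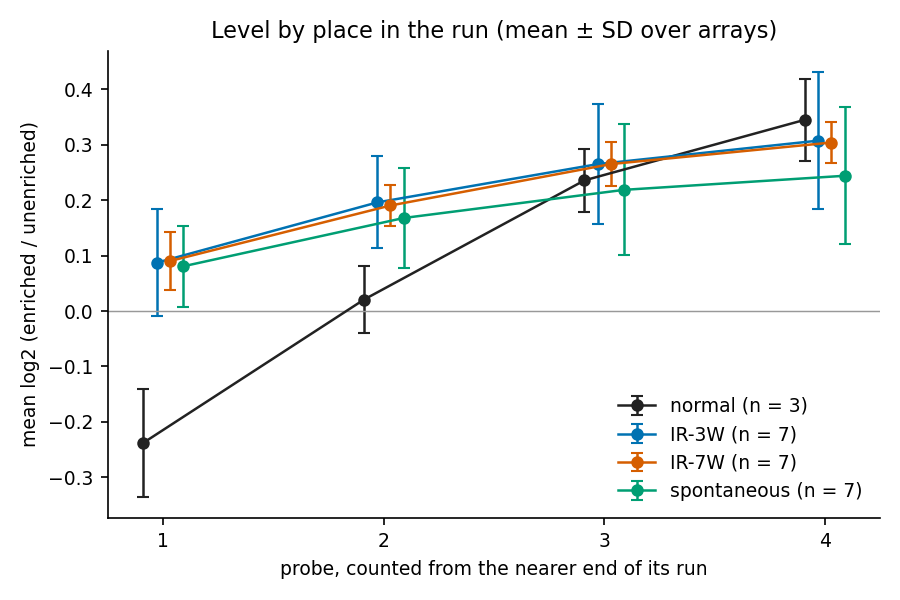
Mean log2 ratio (vertical axis) of the probes in the 1st to 4th place from the nearer end of a run (horizontal axis), mean ± SD over the arrays of each group. The line of the normal glands climbs from -0.24 to 0.35, and the 3 tumor groups follow a flatter line that starts between 0.081 and 0.090.

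Each step was steeper in the glands. From the 1st to the 2nd probe the step was 0.26 ± 0.052 in glands and 0.099 ± 0.049 in tumors (exact permutation p = 0.000988 for the difference). From the 2nd to the 3rd it was 0.22 ± 0.048 and 0.065 ± 0.036, and from the 3rd to the 4th 0.11 ± 0.030 and 0.036 ± 0.019 (exact permutation p = 0.000494 for each difference). All 3 steps stayed less steep in tumors on every scale tried and with any 1 array left out.

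The difference was then set against the size of the run. Runs of 8 to 10 probes (2273 runs, median span 913 bp) had a contrast of -0.64 ± 0.13 in glands and -0.22 ± 0.10 in tumors. Runs of 11 to 14 probes (1043 runs, 1297 bp) had -0.56 ± 0.16 and -0.14 ± 0.089. Runs of 15 to 19 probes (354 runs, 1870.5 bp) had -0.28 ± 0.16 and -0.026 ± 0.079. The tumor minus gland difference was 0.42 in both smaller classes and 0.25 in the largest. It was smaller by 0.17 in the runs of 15 to 19 than in those of 8 to 10 probes (exact permutation p = 0.000988, adjusted p = 0.00148 over 3 comparisons of size).

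Runs outside this range of sizes showed a smaller difference. In 7482 runs of 4 to 7 probes it was 0.26, which was 0.15 less than in the mid-sized runs (exact permutation p = 0.000494 for the difference in shift). In 178 runs of 20 or more probes it was 0.27, which was 0.14 less (exact permutation p = 0.0237). The latter comparison passed no longer without normal gland 1 (difference -0.12, exact permutation p = 0.111) or without normal gland 3 (difference -0.12, exact permutation p = 0.0949). In runs of 4 to 7 probes, edge and center lie closer together, at a median span of 575 bp.

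**Figure D3:**
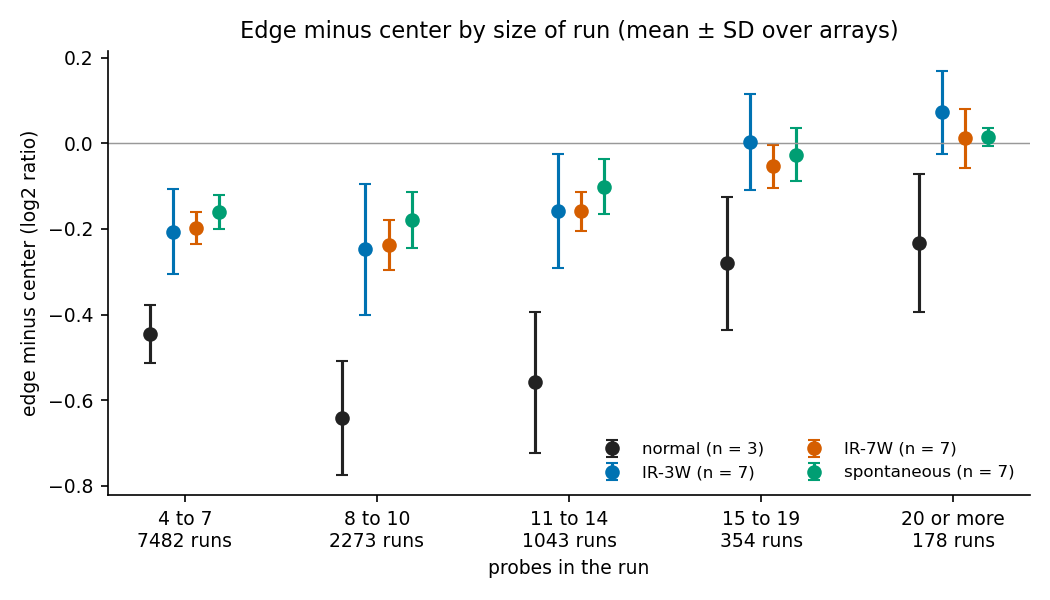
Edge minus center (log2 ratio, vertical axis) by the number of probes in the run (horizontal axis), mean ± SD over the arrays of each group. The glands lie under all tumor groups in each class, and the gap narrows from 0.42 in runs of 8 to 10 probes to 0.25 in runs of 15 to 19.

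The level of the island itself was described by the probes that are neither edge nor center, averaged over the groups with equal weight, and the runs were parted by it into 4 classes of 917 or 918 runs. These classes come from the same arrays, so their values are a description. In the lowest class the contrast was -0.68 ± 0.13 in glands and -0.21 ± 0.13 in tumors. In the next it was -0.72 ± 0.14 and -0.22 ± 0.11, and in the third -0.57 ± 0.16 and -0.099 ± 0.095. In the highest class it was -0.36 ± 0.15 and -0.18 ± 0.098, and there 2 of the glands, at -0.38 and -0.20, lay among the tumors, whose lowest was at -0.40. In the 3 lower classes the edges were higher and the centers lower in tumors, with shifts at the edges of 0.28, 0.22 and 0.29 and at the centers of -0.19, -0.29 and -0.18. In the highest class both were higher in tumors, by 0.51 at the edges and 0.34 at the centers. That last class holds the islands with the most capture, whose other probes had a mean log2 ratio of 0.399 or more.

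By chromosome, the tumor minus gland difference of the contrast was positive on all 20 and ranged from 0.33 to 0.51. On 14 of the 20 no tumor reached into the range of the glands.

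The share of runs that ran against the average was counted next. Edges lay above centers in 28.8%, 22.5% and 18.7% of the runs in normal glands 1, 2 and 3, and in 31.5% to 49.6% of the runs in the tumors, with a median of 39.9%. Edges more than 1 log2 unit above centers made up 2.62% to 4.47% of runs in the glands and 4.69% to 10.98% in the tumors (exact permutation p = 0.000494). Edges more than 1 unit below centers made up 24.9% to 38.4% of runs in the glands and 8.75% to 28.1% in the tumors (exact permutation p = 0.000988). IR-3W tumor 1, at 28.1%, was the tumor that reached into the range of the glands. This tumor also had the widest spread of autosomal log2 ratios, with an SD of 2.19 against 1.14 to 1.60 in the other tumors of all groups.

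Edge probes varied more between samples than center probes in each group. The median over probes of the SD between arrays was 0.31 at edges and 0.23 at centers in glands, 0.51 and 0.38 for IR-3W, 0.40 and 0.31 for IR-7W, and 0.44 and 0.35 for spontaneous tumors. Edge probes were also the dimmer ones, and the part of this in their spread was not tested. Over runs, the rank correlation between edge and center within an array was 0.30 to 0.44 in the glands and 0.39 to 0.59 in the tumors.

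Single probes were then tested across the whole array. Of all 93024 probes, 10.5% were higher and 12.3% lower in tumors than in glands (limma with Benjamini-Hochberg adjustment over all probes, adjusted p under 0.05). Of the edge probes, 16.1% were higher and 3.62% (266 probes) lower. Of the center probes, 551 (7.51%) were higher and 1621 (22.1%) lower. The share of higher calls was above that of all probes at the edges and below it at the centers, and the share of lower calls was below it at the edges and above it at the centers. These shares were not tested against each other. On the rebuilt LogOdds, where 97.2% of the calls over all probes were higher in tumors, 99.8% of the called edges and 91.9% of the called centers were higher. The authors' own LogOdds shifted toward lower values in tumors over the whole set of probes, which they describe as a general loss of methylation. The reason for the unlike directions of the authors' and the rebuilt LogOdds was not tested. On the other 5 scales tried the called edges were mostly higher and the called centers mostly lower, with 17.4% to 28.0% of the called centers higher. The share of edges called was 19.7%, and that of centers 29.6%, while on the rebuilt LogOdds the order was reversed, at 40.0% and 20.8%. On the main scale, leaving out normal gland 2 gave shares of 8.58% and 14.5%, and leaving out normal gland 3 gave 7.87% and 14.8%. With scan day as a block they were 0.627% and 0.967%, and with slide as a block 0.0272% and 0%, where both fits rest on the 1 tumor that shared a day or slide with glands.

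**Figure D4:**
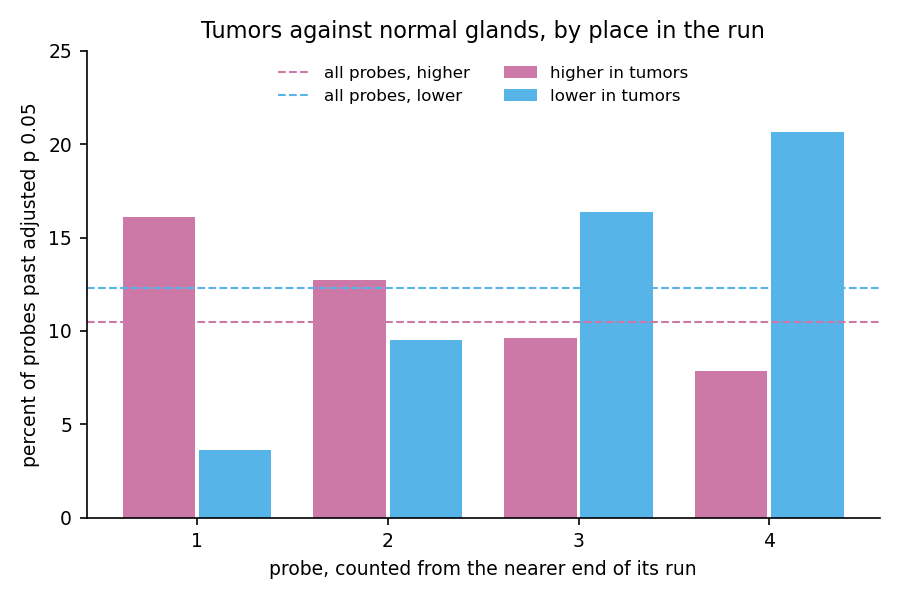
Percent of probes (vertical axis) that were higher (purple bars) or lower (blue bars) in tumors than in glands at an adjusted p under 0.05, by place from the nearer end of a run (horizontal axis), with dashed lines for all probes of the array (10.5% and 12.3%). The share of higher calls falls from 16.1% at the end probe to 7.87% at the 4th place, and the share of lower calls climbs from 3.62% to 20.6%.

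The turn took place between the 2nd and the 3rd probe. At the 2nd probe from the end 12.7% were higher and 9.54% lower, and at the 3rd 9.65% were higher and 16.4% lower.

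The contrast of each run was tested in the same way. Among the 3670 runs, 28.6% (1050 runs) had a higher contrast in tumors, called a rise here, and 1.42% (52 runs) a lower one, called a fall (limma with Benjamini-Hochberg adjustment over the runs). Rises outnumbered falls under each alternative tried. The total of 1102 became 594 when normal gland 2 was left out and 394 when normal gland 3 was, 303 with scan day as a block (288 rises) and 81 with slide as a block (78 rises). Rises made up 28.9% of the runs of 8 to 10 probes, 30.5% of those of 11 to 14 and 21.2% of those of 15 to 19. Of the runs of 4 to 7 probes 16.8% rose, and of those of 20 or more 20.8%. By class of the level of the island, 30.8%, 35.9% and 36.3% rose in the 3 lower classes and 11.4% in the highest. These shares were not tested against each other.

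Over the 1050 rises the median contrast was -1.02 in glands and -0.04 in tumors. The median edge level went from -0.70 to -0.31 and the median center level from 0.29 to -0.26. In 866 of these runs the edge mean was higher and the center mean lower in tumors, in 92 both were higher and in 92 both were lower. Over the 52 falls the median contrast was 0.48 in glands and -0.39 in tumors, and in 50 of them the center mean was higher in tumors. Over all 3670 runs, whether called or not, 43.4% had a higher edge and a lower center in tumors and 4.36% had the reverse, while both were higher in 34.7% and both lower in 17.6%.

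The runs named next are the 5 largest rises and 5 largest falls among the called runs in which each probe was well above background in Cy3 on every array, with positions on rn4. That condition was met by 1283 runs, called or not, among them 391 rises and 15 falls. No gene is paired with a probe in the files, so the runs are given by position. With slide as a block 9 of the 10 were no longer called, all but the largest rise, and with scan day as a block 7 were not. The naming asked for Cy3 signal alone. In Cy5, every one of the 16 runs named by this rule and by the level in glands had its edge and center probes well above background in at least 1 gland, but single probes were dim in up to 2 of 3 glands and 17 of 21 tumors.

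The largest rise was a run of 12 probes at chr14:10859429-10861689. Its contrast was -1.91, -2.29 and -2.52 in normal glands 1, 2 and 3, and -1.27 to 0.11 in the tumors with a median of -0.63. All 21 tumors lay above all glands (difference 1.67, SE 0.24, limma adjusted p = 7.4e-05). Its right edge probe was not well above background in Cy5 in 2 of 3 glands and 15 of 21 tumors, so the exact levels of that end rest on weak captured signal. The center probes went from 0.61, 0.88 and 0.97 in the glands to a median of -0.17 in the tumors, while the edge probes went from between -1.55 and -1.30 to a median of -0.64. The gap between middle and ends was narrower in every tumor than in any gland.

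The second was a run of 12 probes at chr10:13420079-13421168. Its edges were at -0.28, -0.74 and -1.07 in the glands and at a median of 0.38 in the tumors (-0.39 to 0.98). Its center was at 0.51, 0.19 and 0.56 in the glands and at a median of -0.18 in the tumors (-0.90 to 0.63). The contrast turned from -0.79, -0.92 and -1.63 to a median of 0.52, the lowest tumor being at -0.68 (difference 1.63, SE 0.31, limma adjusted p = 0.000503). In the median tumor the edges thus lay above the center, in the glands below it, and both ends were higher in tumors, with differences of 0.85 at the left and 1.24 at the right.

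The other 3 rises had differences of 1.57, 1.55 and 1.52, and in each of them all 21 tumors lay above all glands. In the run of 8 probes at chr3:114838349-114839214 the contrast was -0.76, -1.10 and -1.03 in the glands and a median of 0.52 in the tumors, with a right edge probe not well above background in Cy5 in 1 of 3 glands and 6 of 21 tumors. At chr15:89244124-89245219, a run of 8 probes, it was -0.78, -1.16 and -1.26 in the glands and a median of 0.63 in the tumors. There the left end differed by 0.36 and the right end by 1.41, though the right edge probe was dim in Cy5 (not well above background) in 2 of 3 glands and 3 of 21 tumors, and a center probe in 11 of 21 tumors. At chr12:45434245-45435216, a run of 9 probes, the glands were at -1.78, -1.63 and -2.52 and the tumors at a median of -0.43. Its right end differed by -0.04 and its left end, dim in Cy5 in 1 of 3 glands and 8 of 21 tumors, by 0.96, and the center went from between 0.89 and 1.21 to a median of -0.07.

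In each of the 5 falls the median center level of the tumors was above the mean of the glands. In the run of 8 probes at chr1:209181706-209183256 the center was at -1.25, -0.51 and -0.84 in the glands and at a median of 1.91 in the tumors, reaching 3.34. Each of its center probes was dim in Cy5 in 1 of 3 glands and in no tumor. The edges were at -0.07, -0.19 and -0.30 in the glands and at a median of 1.21 in the tumors. The left end was 2.51 higher in tumors and the right end 0.04 higher. The contrast went from 1.18, 0.32 and 0.53 to a median of -0.77 (difference -1.46, SE 0.31, limma adjusted p = 0.00121), and it was -0.23 with an adjusted p of 0.203 by limma after normexp correction.

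The run of 8 probes at chr1:159275891-159277025 again had unequal ends. Its center went from 0.42, 0.29 and 1.11 to a median of 2.74. Its left end differed by 2.01 and its right end by -0.50. The contrast was 0.26, 0.43 and -0.12 in the glands and -1.89 to -0.13 in the tumors, all 21 below all glands (difference -1.38, SE 0.26, limma adjusted p = 0.000412).

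Next came a run of 10 probes at chr14:82158210-82159657, whose contrast in the glands was 1.39, 2.01 and 1.85, with a center between -1.80 and -1.41. In the tumors the center had a median of -0.54 and the contrast a median of 0.44 (difference -1.36, SE 0.30, limma adjusted p = 0.00168). Its center probes were dim in Cy5 in 1 and 2 of 3 glands and in 2 and 6 of 21 tumors, so the exact center levels of the glands rest on weak captured signal. At chr7:137545222-137546987, in a run of 9 probes, the edges were at -0.03, 0.06 and -0.03 in the glands and at a median of -0.01 in the tumors. Its center went from 0.79, 0.19 and 0.33 to a median of 1.62, for a difference in the contrast of -1.15. The run of 11 probes at chr1:158950921-158951839 was the only 1 of the 5 in which both ends were lower in tumors, by -0.46 and -0.71, for a difference in the contrast of -1.04. Its call was lost without normal gland 2 (difference -0.75, limma adjusted p = 0.103), and its left edge probe was dim in Cy5 in 10 of 21 tumors.

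**Figure D5:**
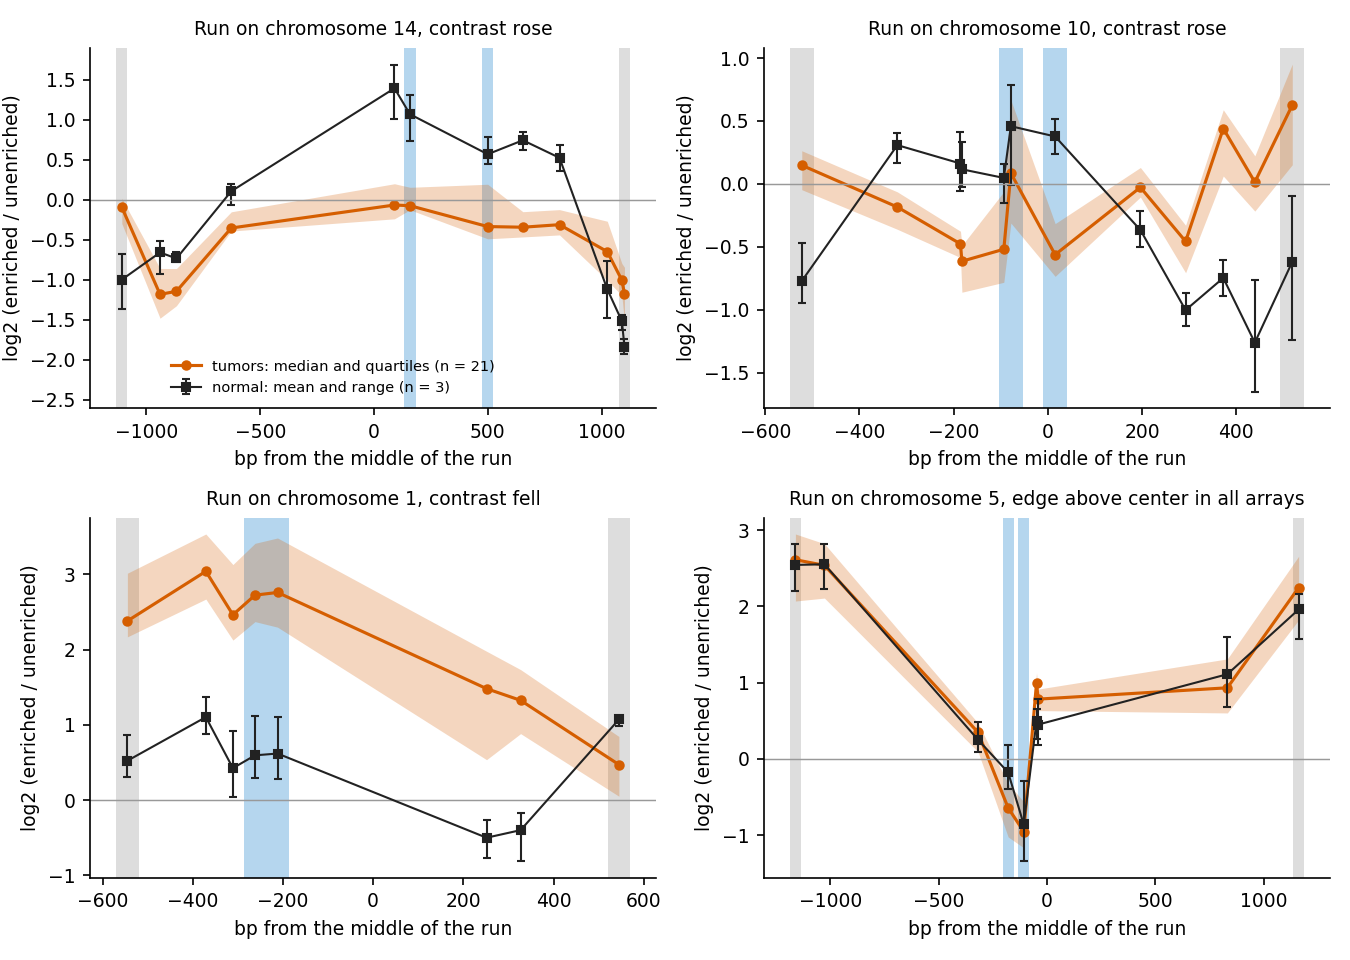
Log2 ratio (vertical axis) along 4 runs by distance from the middle of the run in bp (horizontal axis), for the 3 normal glands (black, mean and range) and the 21 tumors (orange, median and quartiles), with edge probes on gray and center probes on blue bands. On chromosome 14 the contrast is 1.67 higher in tumors, on chromosome 10 1.63 higher, on chromosome 1 the left end is 2.01 higher and the right end differs by -0.50, and on chromosome 5 the center lies below the ends in both tissues.

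The runs with the most extreme contrast in the glands were taken up too. They were picked on the log2 ratios of the glands, which are thus a description. The tumors had a part in the choice only through the Cy3 filter, which covered every array. The tests of these runs use the same gland values and are not independent of the choice. The highest was a run of 9 probes at chr5:150777142-150779509, with 3.02, 2.76 and 2.52 in the glands. The 21 tumors had contrasts of 2.32 to 4.13 with a median of 3.15. One of its center probes was not well above background in Cy5 in 1 of 3 glands and 12 of 21 tumors, and the other in 1 tumor. Its ends had a log2 ratio of 2.39, 1.89 and 2.47 in the glands and its center -0.63, -0.87 and -0.05. The others were a run of 10 probes at chr19:36194139-36195758 and a run of 18 probes at chr7:9879359-9881563. They had 2.33, 1.86 and 2.32, and 2.21, 1.82 and 1.87 in the glands, and medians of 1.43 (0.41 to 2.60) and 2.03 (1.38 to 3.33) in the tumors. In none of the 3 did the contrast differ between tumors and glands past the adjusted threshold (limma adjusted p = 0.329, 0.0655 and 0.814). The center probes of the second were dim in Cy5 in 1 and 2 of 3 glands and in 14 and 6 of 21 tumors, and a center probe of the third in 13 tumors and its right edge probe in 12.

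At the other extreme stood 3 runs with a strongly captured center. In the run of 9 probes at chr9:22126464-22127853 the center was at 5.26, 2.76 and 3.50 in the glands and at a median of 3.55 in the tumors (2.28 to 6.18). The edges were near or below 0, at -0.42, -0.29 and -0.76 in the glands and a median of -0.16 in the tumors. The contrast was -5.68, -3.05 and -4.26 in the glands and -6.46 to -2.29 in the tumors. At chr3:4319148-4321676, over 11 probes, the contrast was -3.60, -3.15 and -3.77 in the glands and a median of -3.11 in the tumors. Its left edge was strongly captured too, with a gland mean of 3.19 against -1.37 at the right edge. At chr3:146587018-146588022, also over 11 probes, the contrast was -3.45, -1.75 and -3.86 in the glands and a median of -2.99 in the tumors. In none of the 3 did the difference pass the threshold (limma adjusted p = 0.676, 0.365 and 0.857). The right edge probe was dim in Cy5 in 1, 9 and 17 of 21 tumors, in the order given. The glands differed among themselves by over 2 units in the first and the last of them.

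The age at irradiation was compared last. The mean contrast of the IR-7W tumors was 0.00042 higher than that of the IR-3W tumors (95% interval -0.12 to 0.12, two-sided exact permutation test over 3432 splits, p = 0.994). Spontaneous tumors were 0.056 higher than IR-3W (interval -0.072 to 0.18, exact permutation p = 0.362) and 0.055 higher than IR-7W (interval -0.013 to 0.12, exact permutation p = 0.101). Within single scan days, IR-7W minus IR-3W ran from -0.12 to 0.13 over 4 days, spontaneous minus IR-3W from -0.079 to 0.18 over 2 days, and spontaneous minus IR-7W from -0.020 to 0.087 over 3 days. Spontaneous minus IR-7W came to 0.068 with 1 tumor per rat, which leaves out IR-7W tumor 2 (exact permutation p = 0.049 before adjustment), and to 0.071 on leaving out spontaneous tumor 6 (exact permutation p = 0.0326 before adjustment). The spread of the contrast among the 7 tumors was 0.14 (SD) for IR-3W, 0.051 for IR-7W and 0.063 for spontaneous tumors.

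Of the 3670 runs, 1 (0.0272%) differed between IR-7W and IR-3W (limma, adjusted p = 0.0374), and 172 (4.69%) had an unadjusted p under 0.05, 85 higher and 87 lower in IR-7W. That last share is close to what a threshold of 0.05 gives by chance. The shares by age over all probes of the array were not computed. The 1 run called lay at chr6:2552024-2554889 and is named after its values were seen, since a probe of it was not well above background in Cy3 on some array. Its contrast was 0.53 to 1.27 in IR-3W with a median of 0.92, and -0.82 to 0.43 in IR-7W with a median of -0.25, and the ranges did not overlap. The spontaneous tumors lay between -0.77 and 0.47, and the glands at 0.14, -0.27 and -0.16. Its center had a median of -0.31 in IR-3W and 0.42 in IR-7W, and its edges 0.66 and 0.10. Its right edge probe was dim in Cy5 in 2 of 3 glands and 9 of 21 tumors, and a center probe in 3 tumors. The call was lost with slide as a block (limma adjusted p = 0.281), with scan day (0.0683) or replicate number (0.145) as a block, with 1 tumor per rat (0.189), on percentile ranks (0.148), on the rebuilt LogOdds (0.0802) and with normexp correction (difference -0.30, limma adjusted p = 0.636). The difference was -1.17 in the main fit. With slide, scan day and replicate number as a block it was -1.33, -1.16 and -1.17, and with 1 tumor per rat -1.05. The call was also lost on leaving out any of 11 of the 14 tumors one at a time, with limma adjusted p from 0.0524 to 0.134. Over all 14 such fits the difference was -1.29 to -1.08.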

How the data were processed

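The authors used Agilent Feature Extraction 10.7.3.1, which gave the spot intensity values deposited per array (background-subtracted, spatially detrended and dye-normalized). The log2 ratios of 91897 probes that the authors deposited as a series matrix served as an alternative. Cy5 (captured) over Cy3 (uncaptured) follows the dyes in the labels. Each log2 ratio was taken from the processed intensities, after dropping control spots and 0 to 35 outlier spots an array, and the array median was subtracted. The deposited log10 ratio served to check it.

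Edge minus center was computed per run and averaged per array. Per-array means were compared by exact permutation tests, and probes and runs with limma 3.58.1 in R 4.3.3 (only the arrays compared, no covariate), tested first on simulated data. The permutation tests ran in Python 3.11.15 with scipy 1.17.1 and numpy 2.4.6. No array copied another (correlations 0.755 to 0.956). Normal glands and tumors are separate samples by their labels, except the pairs of tumors from 1 rat. The number of arrays limits the precision.

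The islands compared, the rule for naming runs (5 largest rises and falls of those called, 3 highest and 3 lowest in glands, up to 2 each way by age) and the tests were chosen with earlier results of these data known. Both filters named as both channels and as 45 bases, and the other scales for edge and center levels, steps and size classes, were added after seeing the data. Normexp used an offset of 50 on the median signals, and LogOdds was rebuilt from a mixture of 2 normal curves per array. The rebuilt LogOdds left out the authors' comparison among probes of the same melting temperature. The methods' test leaves variances unmoderated. Expression arrays, bisulfite data, genes, island boundaries and probe melting temperatures were not analysed here.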

Additional observations from a re-analysis of the deposited data

Results flagged for a closer look

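The edge minus center contrast of the 3670 mid-sized runs differed between tumors and normal glands by 0.40 (exact permutation p = 0.000494), with all 21 tumors above all 3 glands. The separation was not complete on the runs filtered by signal over background. The tumor minus gland difference was itself unequal between sizes of runs. It differed by -0.17 between runs of 15 to 19 and runs of 8 to 10 probes (exact permutation p = 0.000988), was 0.15 larger in the mid-sized runs than in runs of 4 to 7 probes (exact permutation p = 0.000494), and differed by -0.14 between runs of 20 or more probes and the mid-sized runs (exact permutation p = 0.0237). The mean of the edge probes in IR-7W tumor 2 was 0.20, above the other 6 tumors of its group, with a gap to the next of 0.635 of the range of the group, above Dixon's limit of 0.568. It was the 1 such sample among 24 sets of 7 values examined, and chance gives about 1 in 20. The sets were edge and center measures of the tumor groups, and the autosomal SD was not among them. Its array shared slide 1 and scan day 1 with IR-3W tumor 2 alone, which at 0.25 had the highest edge mean of the 24 arrays, IR-7W tumor 2 being next. On 37 runs of 8 to 19 probes on contigs not placed on a chromosome, which the report does not use, the contrast was also higher in tumors, by 0.20 (exact permutation p = 0.000494), at -0.081 ± 0.065 (SD, n = 21) against -0.28 ± 0.093 (SD, n = 3).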

How the results depend on the processing

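The tumor minus gland difference of the contrast stayed positive under each alternative. Its exact p was over 0.05 with slide as a block (0.49, p = 1) and with scan day as a block (0.50, exact permutation p = 0.25), fits in which 2 and 4 arrays take part and no smaller p is possible; leaving out each array gave 0.33 to 0.47. With the replicate number as a block (replicate block) it was 0.41 (exact permutation p = 0.0156), the runs called were 913, and for IR-7W against IR-3W they were 0. The numbers do not pair the samples: same-numbered samples of different groups had correlations of -0.39 to 0.29.

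The contrast turned positive with normexp in IR-3W (0.032), IR-7W (0.039) and spontaneous tumors (0.038). It was no longer past the threshold in IR-3W with both channels well above background (-0.10), nor with probes of 45 bases in IR-3W (-0.061), IR-7W (-0.056) and spontaneous tumors (-0.0062). Without each array in turn it was -0.65 to -0.51 in glands, -0.23 to -0.16 in IR-3W, -0.21 to -0.18 in IR-7W and -0.15 to -0.13 in spontaneous tumors.

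IR-7W minus IR-3W, near 0, turned negative with quantile normalization (-0.016), division by the array SD (-0.016), percentile ranks (-0.12), the rebuilt LogOdds (-0.044), 2 probes per edge (-0.0039), slide as a block (-0.031) and 1 tumor per rat (-0.011), and was -0.036 to 0.033 without single arrays. Spontaneous minus IR-3W was -0.18 with slide as a block and within slide 4, and 0.020 to 0.088 without single arrays. Spontaneous minus IR-7W was -0.0016 with normexp, -0.020 within scan day 5, 0.068 with 1 tumor per rat (exact permutation p = 0.049), and 0.041 to 0.071 without single arrays, passing 0.05 without IR-7W tumor 2 (0.068, exact permutation p = 0.049) and without spontaneous tumor 6 (0.071, exact permutation p = 0.0326). The center level of tumors was 0.96 higher than that of glands on the rebuilt LogOdds.

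Runs called for tumors against glands numbered 644 of 1812 with Cy3 well above background, 129 of 569 with both channels, 139 of 385 with probes of 45 bases, 81 with slide and 303 with scan day as a block, 488 at an unadjusted p under 0.001, and 394 to 1208 without single arrays. Runs called by age numbered 3 with the series matrix, 2 with quantile normalization, division by the SD and probes of 45 bases, 8 at an unadjusted p under 0.001, and 0 with normexp, percentile ranks, LogOdds, a gap of 500 bp, slide, scan day or replicate block, 1 tumor per rat and the methods' test, and 0 to 2 without single arrays. Edge probes called were 40.0% on LogOdds, 0.0272% and 0.627% with slide and scan day as a block and 8.71% at an unadjusted p under 0.001. Center probes called were 20.8%, 0%, 0.967% and 16.1% in the same order. Without single arrays the edge share was 7.87% to 21.9% and the center share 14.5% to 31.2%. The cause was not tested. Fewer edge than center probes were well above background in Cy5. The means were 70.4% and 88.3% in the tumors, and 80.3% and 95.2% in the glands. The part of this in the calls was not tested.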

Other observations

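On the X chromosome, which the report leaves out, 108 runs of 8 to 19 probes had an edge minus center contrast of -0.57 ± 0.12 (SD, n = 3) in the normal glands, close to the -0.58 of the autosomal runs. In the tumors it was -0.40 ± 0.15 (SD, n = 21), ranging from -0.83 to -0.12. The tumor minus gland difference of 0.17 did not pass the test (two-sided exact permutation p = 0.0741), and glands and tumors overlapped. The highest value, -0.12, was that of IR-7W tumor 3. The contrasts on the X chromosome and on the autosomes were not tested against each other.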
